A study of Homo sapiens with 30 samples.

Results

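The 29 genes described here encode enzymes, regulators and a carrier protein of cholesterol and fatty acid synthesis. They were matched by symbol, with no threshold on a measured value, and all 29 were found among the 27348 genes present in both deposited count tables. The genes were chosen with earlier results of these data known, so their counts of calls beside the shares of all genes are not independent evidence. The sterol branch has 23 genes, of which 18 encode enzymes and 5 encode regulators or a transport protein, and the fatty acid branch has 6. RNA was sequenced from RUES2 cells, a single human embryonic stem cell line, grown in TeSR E7 medium with a ROCK inhibitor, which all groups shared. The 16 libraries formed 8 groups of 2, named as in the labels. At 24 h, E7 cells were untreated, WNT cells had Wnt3a at 100 ng/mL, E7_CPI cells had CPI-203 at 1 µM, and WNT_CPI cells had both. At 48 h, E7_ACT cells had no Wnt3a on day 1 and Activin A at 10 ng/mL on day 2, and WNT_E7 cells had Wnt3a on day 1 and no Activin A on day 2. WNT_ACT cells had Wnt3a and then Activin A, and WNT_CPI_ACT cells had Wnt3a with CPI-203 on day 1 and then Activin A. Wnt3a and Activin A are signalling proteins that drive stem cells towards mesendoderm, the common precursor of mesoderm and endoderm. CPI-203 blocks the BET bromodomain proteins, which bind acetylated histones and help RNA polymerase II to elongate. The labels leave unsaid whether the libraries of a group are from separate cultures, and the p-values speak only of the variation between these libraries, which may be technical.

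Cholesterol is built from acetyl-CoA through mevalonate, farnesyl diphosphate and squalene, and fatty acids are built from the same acetyl-CoA after ATP citrate lyase has made it from citrate. Most of these genes are known targets of the SREBP transcription factors, which are carried by SCAP from the endoplasmic reticulum to the Golgi, cut there and moved to the nucleus when membrane sterol is low. INSIG proteins hold SCAP in the endoplasmic reticulum when sterol is high, and INSIG1 is itself an SREBP target. Dividing stem cells depend on this supply for new membrane.

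Library totals ran from 36268324 to 43347733 counts, and the lowest count of any of the 29 genes in any library was 289. Levels are given in CPM, each count being divided by its TMM-scaled library total, for replicates 1 and 2 in that order, and are compared between libraries of a gene but not between genes, since they are not corrected for length. The values of E7_CPI replicate 1 were shifted against the gene names beside them: as deposited, their Spearman correlation with the other libraries reached only 0.00712 in size. With the names of the replicate 2 table, in its order, they correlated at 0.954 to 0.986 with the others, highest with E7_CPI replicate 2, and they are used with those names throughout. The 2 E7_CPI libraries were far closer to each other than any other pair: the SD of their log2 ratio over genes was 0.152, against 0.517 to 0.702 in the other 7 groups. They still differed by more than sampling noise, with a mean chi-square of 3.72 per gene, and were kept as 2 libraries. Across the other 7 groups, the deviations of same-numbered libraries from their group means correlated at 0.474 to 0.923 in 21 pairs of groups, so the numbers pair these libraries. E7_CPI did not follow, at -0.131 to -0.022 in 7 pairs. Both E7_CPI libraries lay with the replicate 2 libraries of the other groups. Over genes, their log2 ratio to WNT_CPI replicate 1 correlated at -0.782 and -0.769 with the mean ratio of replicate 1 to replicate 2 in those groups, WNT_CPI included, and their ratio to WNT_CPI replicate 2 at -0.095 and -0.047. E7_CPI against E7 therefore sets 2 libraries like replicate 2 against 1 library of each number, and whether the 2 came from 1 culture was not tested. Counts of genes called in the CPI-203 comparisons are given also without E7_CPI replicate 1. They are given as well with replicate number as a term in the model and without that library, which is called the paired fit and sets E7_CPI replicate 2 against E7 with the replicate difference removed. Of the 12 markers of human embryonic stem cells none was at 0 in any group, and their summed level was 11940 to 13840 CPM in E7.

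After 24 h of CPI-203 the genes did not move as a block. INSIG1, FASN, MVD, IDI1, FADS1, TM7SF2, ACLY and SQLE rose with CPI-203, both without and with Wnt3a, and were called in all 3 fits. HMGCS1, CYP51A1, ACAT2, FDPS, SREBF1 and PMVK had lower levels without overlap in both settings, few of them past the test. By that looser measure LSS, FDFT1, MSMO1, SC5D, DHCR7, SCAP and SCD were also higher in both settings. Of the 29 genes, 12 were called higher and 1 lower in E7_CPI against E7, at an adjusted p under 0.05 in edgeR's quasi-likelihood test, where 15% of the 17355 genes tested were called higher and 17.6% lower. In WNT_CPI against WNT, 9 were called higher and 3 lower, where 13% of all genes tested were called higher and 17.9% lower. The median log2 fold change of the 29 genes was 0.46 without Wnt3a and 0.24 with it, beside -0.05 and -0.01 over all genes tested. In bulk RNA a change in the number of cells of a type and a change in RNA per cell cannot be told apart. The summed level of the 12 stem cell markers was 9453 to 9717 CPM in E7_CPI and 7404 to 8272 CPM in WNT_CPI, with 7 and 8 of them called lower and 1 called higher in each comparison. Markers of other cell types moved as well. The summed level of 5 neuroectoderm markers was 2.88 to 3.68 CPM in E7, 5.05 to 5.19 in E7_CPI, 2.67 to 2.91 in WNT and 7.22 to 9.39 in WNT_CPI, with none at 0. POU3F2 and LHX2 were called higher in both comparisons and ZIC1 with Wnt3a. That of 5 trophoblast and amnion markers was 10.7 to 13.8 CPM in E7, 2.57 to 2.85 in E7_CPI, 6.47 to 10.7 in WNT and 1.81 to 2.12 in WNT_CPI, with CGA at 0 in WNT. In both comparisons KRT7 was called lower and TFAP2A higher. Of 7 fibroblast markers PDGFRB, POSTN and COL1A2 were called lower in both comparisons, DCN was at 0 in all these groups and LUM in all but E7_CPI. Their sum was 288.3 to 369.4 CPM in E7, 369.9 to 375.3 in E7_CPI, 217 to 374.1 in WNT and 231.6 to 282.3 in WNT_CPI. That of 7 primitive streak and mesendoderm markers was 2.03 to 2.07 CPM in E7, 4.12 to 4.15 in E7_CPI, 29.96 to 44.97 in WNT and 35.35 to 45.5 in WNT_CPI, with TBX6 called lower in both comparisons and none at 0. The part of these markers in the results was not tested.

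The counts depended on which libraries were kept, not on E7_CPI replicate 1 alone, and on whether replicate number was a term. Without E7_CPI replicate 1, 8 genes were called higher and 0 lower in each 24 h comparison, where 8.24% and 9.3% of 17793 genes were called higher and lower without Wnt3a and 10.9% and 15.6% with Wnt3a. The paired fit called 16 higher and 2 lower without Wnt3a (21.8% and 22.2% of all genes) and 14 higher and 6 lower with Wnt3a (24.9% and 28%). Of the genes named above as higher, the first 8 were called in all 3 fits in both comparisons. None of the falls was called in all 3 fits: CYP51A1 in both comparisons and ACAT2 and SREBF1 in WNT_CPI against WNT lost their call without E7_CPI replicate 1.

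**Figure D1:**
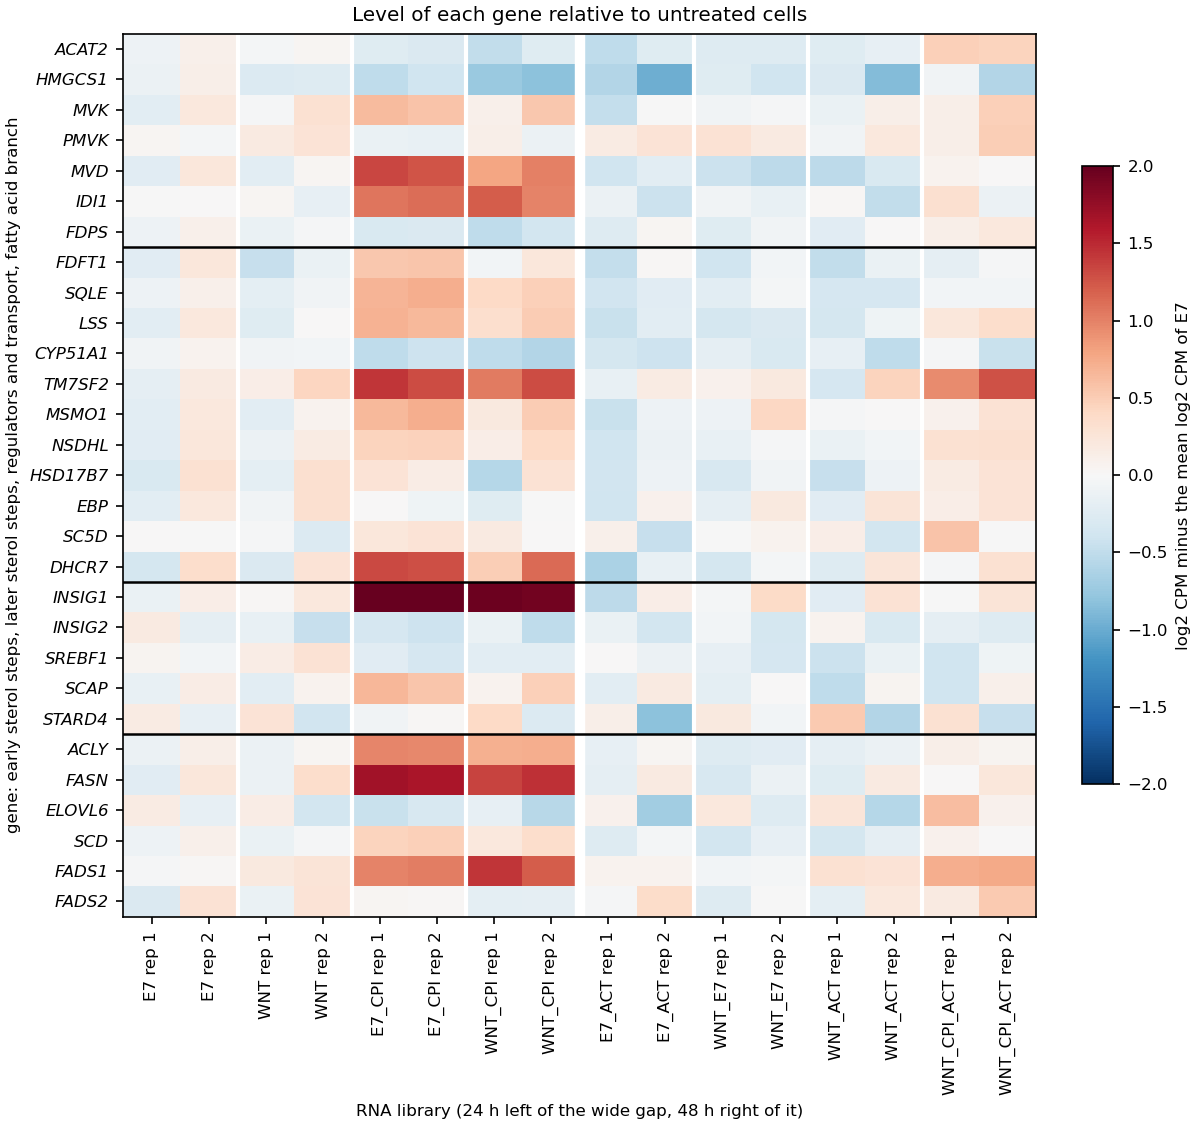
Level of each of the 29 genes in each of the 16 RNA libraries, as log2 CPM minus the mean log2 CPM of the 2 E7 libraries (colour, red higher and blue lower), with genes in rows grouped by role and libraries in columns; E7_CPI replicate 1 has the gene names of the replicate 2 table. INSIG1, FASN, MVD, IDI1, TM7SF2 and FADS1 are red in all 4 CPI-203 libraries at 24 h, and TM7SF2 and FADS1 are also red in both WNT_CPI_ACT libraries.

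Among the 7 early steps, from acetyl-CoA to farnesyl diphosphate, 2 genes rose in both 24 h comparisons and the median of the 7 was below 0, at -0.14 and -0.23. There were 2 calls higher and 0 lower in each comparison without E7_CPI replicate 1, and in the paired fit 3 higher and 2 lower without Wnt3a and 2 and 3 with it. MVD, the decarboxylase that makes isopentenyl diphosphate, stood at 79.6 and 109 CPM in E7, 235 and 224 in E7_CPI, 80.7 and 96.1 in WNT and 162 and 188 in WNT_CPI. All 4 CPI-203 libraries were above all 4 others, by a log2 fold change of 1.28 ± 0.16 (SE, n = 2; adjusted p = 0.000254) without Wnt3a and 0.98 ± 0.16 (adjusted p = 0.00118) with it. IDI1, which isomerises that product to dimethylallyl diphosphate, stood at 164 and 166 CPM in E7, 348 and 359 in E7_CPI, 169 and 147 in WNT and 380.5 and 329 in WNT_CPI. The groups did not overlap, and the log2 fold changes were 1.10 ± 0.19 (adjusted p = 0.00171) and 1.17 ± 0.19 (adjusted p = 0.00122). IDI1 overlaps WDR37 and IDI2-AS1 in the RefSeq annotation and has 3 pseudogenes by name, and whether reads were counted by strand is not given in the sources used here, so its reads may be shared.

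HMGCS1, the synthase that condenses acetyl-CoA and acetoacetyl-CoA on the way to mevalonate, took the opposite sign. Its level was 974 and 1149 CPM in E7, 742 and 804 in E7_CPI, 872 and 880.2 in WNT and 634 and 599 in WNT_CPI. Both CPI-203 libraries lay below both controls in each setting, but the log2 fold changes of -0.46 ± 0.22 (adjusted p = 0.133) and -0.51 ± 0.22 (adjusted p = 0.103) did not pass the test. In the paired fit the difference with Wnt3a was called, at -0.51 ± 0.17 (adjusted p = 0.024), and the one without Wnt3a was not, at -0.31 ± 0.21 (adjusted p = 0.259). ACAT2, the cytosolic thiolase that makes acetoacetyl-CoA, stood at 209.5 and 242 CPM in E7, 189.7 and 185 in E7_CPI, 219 and 232 in WNT and 160.2 and 189.7 in WNT_CPI. The CPI-203 libraries were again the lower ones, with log2 fold changes of -0.27 ± 0.12 (adjusted p = 0.121) and -0.37 ± 0.12 (adjusted p = 0.0462), and the call with Wnt3a was also lost without WNT replicate 1, WNT replicate 2 or WNT_CPI replicate 1. FDPS, which makes farnesyl diphosphate, had log2 fold changes of -0.30 ± 0.14 and -0.36 ± 0.14 and was called lower only in the paired fit (adjusted p = 0.00577 and 0.00147). ACAT2 overlaps TCP1 and SOD2, MVK overlaps MMAB, and FDPS has 10 pseudogenes by name, so reads may be shared there too. The same holds for other genes below that overlap annotated genes, among them INSIG1, SREBF1, DHCR7, SCAP, LSS, ACLY and FASN. It also holds for SCD and HSD17B7, which have pseudogenes by name. MVK and PMVK, the kinases that act on mevalonate, were not called in either comparison, with log2 fold changes of 0.59 ± 0.23 and 0.19 ± 0.23 for MVK and -0.14 ± 0.17 and -0.23 ± 0.16 for PMVK, and the paired fit called MVK higher without Wnt3a (adjusted p = 0.0324).

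Of the 11 genes from squalene onwards, 5 were called higher and 1 lower without Wnt3a, and 3 higher and 1 lower with it. The calls without E7_CPI replicate 1 were 2 higher and 0 lower in each comparison, and in the paired fit 7 and 0 without Wnt3a and 6 and 2 with it. SQLE, the squalene epoxidase that controls entry into the sterol-specific steps, was at 362 and 413 CPM in E7, 622 and 639 in E7_CPI, 336 and 368 in WNT and 509 and 537 in WNT_CPI. It rose by 0.70 ± 0.11 (adjusted p = 0.000848) and 0.57 ± 0.11 (adjusted p = 0.00281) on the log2 scale, with no overlap between groups. TM7SF2, a sterol C14-reductase, was at 33 and 42 CPM in E7, 100.5 and 91.8 in E7_CPI, 40.9 and 50.3 in WNT and 76.2 and 92.2 in WNT_CPI. Its log2 fold changes were 1.36 ± 0.25 (adjusted p = 0.00212) and 0.88 ± 0.25 (adjusted p = 0.0198), and the call with Wnt3a was lost without WNT replicate 1 or WNT_CPI replicate 2.

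DHCR7, which reduces 7-dehydrocholesterol to cholesterol in the last step, was at 178 and 292 CPM in E7, 570.5 and 558 in E7_CPI, 186 and 277 in WNT and 322 and 502 in WNT_CPI. The CPI-203 libraries were the higher ones in each setting, and replicate 1 was the lower library in E7, WNT and WNT_CPI. Its log2 fold change passed the test without Wnt3a, at 1.26 ± 0.32 (adjusted p = 0.0112), though not without E7 replicate 1 or E7_CPI replicate 1, and did not pass with Wnt3a, at 0.83 ± 0.31 (adjusted p = 0.0677). Between libraries of the same number the difference without Wnt3a was 1.68 for replicate 1 and 0.94 for replicate 2. Both E7_CPI libraries lay with the replicate 2 libraries, so the 1.68 sets a library like replicate 2 against E7 replicate 1. The paired fit called both comparisons, at 1.03 ± 0.12 (adjusted p = 7.87e-05) and 0.82 ± 0.10 (adjusted p = 5.21e-05). LSS, the cyclase that makes lanosterol, was called in both comparisons at 0.65 ± 0.16 (adjusted p = 0.0117) and 0.53 ± 0.16 (adjusted p = 0.0311) but in neither without E7_CPI replicate 1. The LSS call without Wnt3a was also lost without E7 replicate 1 or E7_CPI replicate 2, and that with Wnt3a without WNT replicate 1 or either WNT_CPI replicate. MSMO1, a methylsterol oxidase, was called without Wnt3a at 0.68 ± 0.21 (adjusted p = 0.0291) and had 0.42 ± 0.21 with it, and its call was lost without E7 replicate 1 or either E7_CPI replicate.

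CYP51A1, which demethylates lanosterol, was the 1 gene of these later steps called lower, and it overlaps CYP51A1-AS1 and has 3 pseudogenes by name. It stood at 201 and 220.2 CPM in E7, 148 and 157 in E7_CPI, 201 and 201 in WNT and 149 and 141 in WNT_CPI. All 4 CPI-203 libraries were below all 4 others, at log2 fold changes of -0.46 ± 0.15 (adjusted p = 0.0381) and -0.47 ± 0.15 (adjusted p = 0.0364). Leaving out any single library of the compared groups ended the call in each comparison, and the paired fit called it with Wnt3a (adjusted p = 0.0062) and not without (adjusted p = 0.0743). FDFT1, the squalene synthase, had 0.53 ± 0.23 and 0.38 ± 0.22 and was called in both comparisons by the paired fit alone (adjusted p = 0.0114 and 0.0024). The remaining 4 genes of these steps, NSDHL, HSD17B7, EBP and SC5D, lay between -0.26 ± 0.24 for EBP with Wnt3a and 0.44 ± 0.17 for NSDHL without it, and none was called. The paired fit called NSDHL, which removes the methyl groups of the sterol with HSD17B7 and MSMO1, higher without Wnt3a (adjusted p = 0.0457), and EBP, a sterol isomerase, lower with it (adjusted p = 0.041).

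Of the 5 genes for regulators and transport, INSIG1 changed most. INSIG1 stood at 106 and 128 CPM in E7, 470.2 and 488 in E7_CPI, 118 and 134 in WNT and 453 and 445 in WNT_CPI. All 4 CPI-203 libraries were far above the 4 others, and the log2 fold changes were 2.04 ± 0.24 (adjusted p = 0.000176) and 1.83 ± 0.24 (adjusted p = 0.000304). Its paralogue INSIG2, which also retains SCAP but is not known as an SREBP target, was at 12.5 and 9.79 CPM in E7, 8.78 and 8.28 in E7_CPI, 9.96 and 8.09 in WNT and 10.1 and 7.76 in WNT_CPI. Its log2 fold changes of -0.39 ± 0.21 (adjusted p = 0.193) and -0.02 ± 0.21 (adjusted p = 0.965) did not pass the test.

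SREBF1, the gene of the SREBP that favours fatty acid synthesis, stood at 98.8 and 91.6 CPM in E7, 81.2 and 75.5 in E7_CPI, 105 and 117 in WNT and 82.3 and 82 in WNT_CPI. The CPI-203 libraries were the lower ones in both settings, at -0.28 ± 0.14 (adjusted p = 0.155) and -0.43 ± 0.14 (adjusted p = 0.0391) on the log2 scale, and the call with Wnt3a was lost when any of its 4 libraries or E7_CPI replicate 1 was left out. SREBF2, the gene of the SREBP that favours sterol synthesis, could not be followed: the RefSeq table places it on chromosome 22, where 625 of 626 genes had no count in any library. SCAP, the escort of the SREBPs, was at 124 and 153 CPM in E7, 218 and 203 in E7_CPI, 119 and 145 in WNT and 145 and 192 in WNT_CPI. Its groups did not overlap in either setting, though with Wnt3a the nearest libraries were 144.7 and 145.1 CPM. The log2 fold changes of 0.61 ± 0.24 (adjusted p = 0.0792) and 0.36 ± 0.24 (adjusted p = 0.302) did not pass, although the paired fit called both (adjusted p = 0.0197 and 0.00754). STARD4, a carrier of sterol between membranes, had -0.03 ± 0.43 and 0.12 ± 0.43, within its spread between replicates.

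In the fatty acid branch 4 of 6 genes were called higher without Wnt3a and 3 of 6 with it, none lower, with medians of 0.71 and 0.56. These were 3 and 3 without E7_CPI replicate 1, and in the paired fit 4 and 4. In the sterol branch 8 of 23 were called higher without Wnt3a and 6 of 23 with it, with medians of 0.44 and 0.24, and the difference between the branches was not tested. The counts of the sterol branch called higher were 5 and 5 without E7_CPI replicate 1, and in the paired fit 12 and 10, with 2 and 6 lower. ACLY, the ATP citrate lyase that supplies acetyl-CoA, was at 803 and 955 CPM in E7, 1721 and 1714 in E7_CPI, 808 and 897 in WNT and 1431 and 1450 in WNT_CPI. The groups did not overlap, and ACLY rose by 0.97 ± 0.12 (adjusted p = 0.000199) and 0.76 ± 0.12 (adjusted p = 0.000812). FASN, the fatty acid synthase that makes palmitate, was at 1345 and 1844 CPM in E7, 5050 and 4861 in E7_CPI, 1448 and 2001 in WNT and 4006 and 4347 in WNT_CPI. FASN rose by 1.64 ± 0.22 (adjusted p = 0.000369) and 1.28 ± 0.22 (adjusted p = 0.00151), with all 4 CPI-203 libraries above the 4 others.

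The desaturases and the elongase did not follow each other. FADS1, the delta-5 desaturase of polyunsaturated fatty acids, was at 299.9 and 311 CPM in E7, 609 and 618 in E7_CPI, 350.5 and 366 in WNT and 822 and 709 in WNT_CPI, and the groups did not overlap. Its log2 fold changes were 1.01 ± 0.10 (adjusted p = 5.39e-05) and 1.09 ± 0.10 (adjusted p = 3.03e-05), the lowest adjusted p of the 29 genes in each comparison. FADS2, the delta-6 desaturase whose annotation overlaps that of FADS1, had 0.00 ± 0.23 (adjusted p = 1) and -0.28 ± 0.23 (adjusted p = 0.419). SCD, the stearoyl-CoA desaturase that makes oleate, was at 2728 and 3140 CPM in E7, 4006 and 4073 in E7_CPI, 2670 and 2880 in WNT and 3380 and 3722 in WNT_CPI. SCD was called at 0.46 ± 0.13 (adjusted p = 0.0221) without Wnt3a, though not without E7 replicate 1 or either E7_CPI replicate, and had 0.36 ± 0.13 (adjusted p = 0.0655) with Wnt3a, while the paired fit called both (adjusted p = 0.0048 and 0.0024). ELOVL6, which lengthens palmitate to stearate, had -0.40 ± 0.34 and -0.26 ± 0.34 and was not called in any of the 3 fits.

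**Figure D2:**
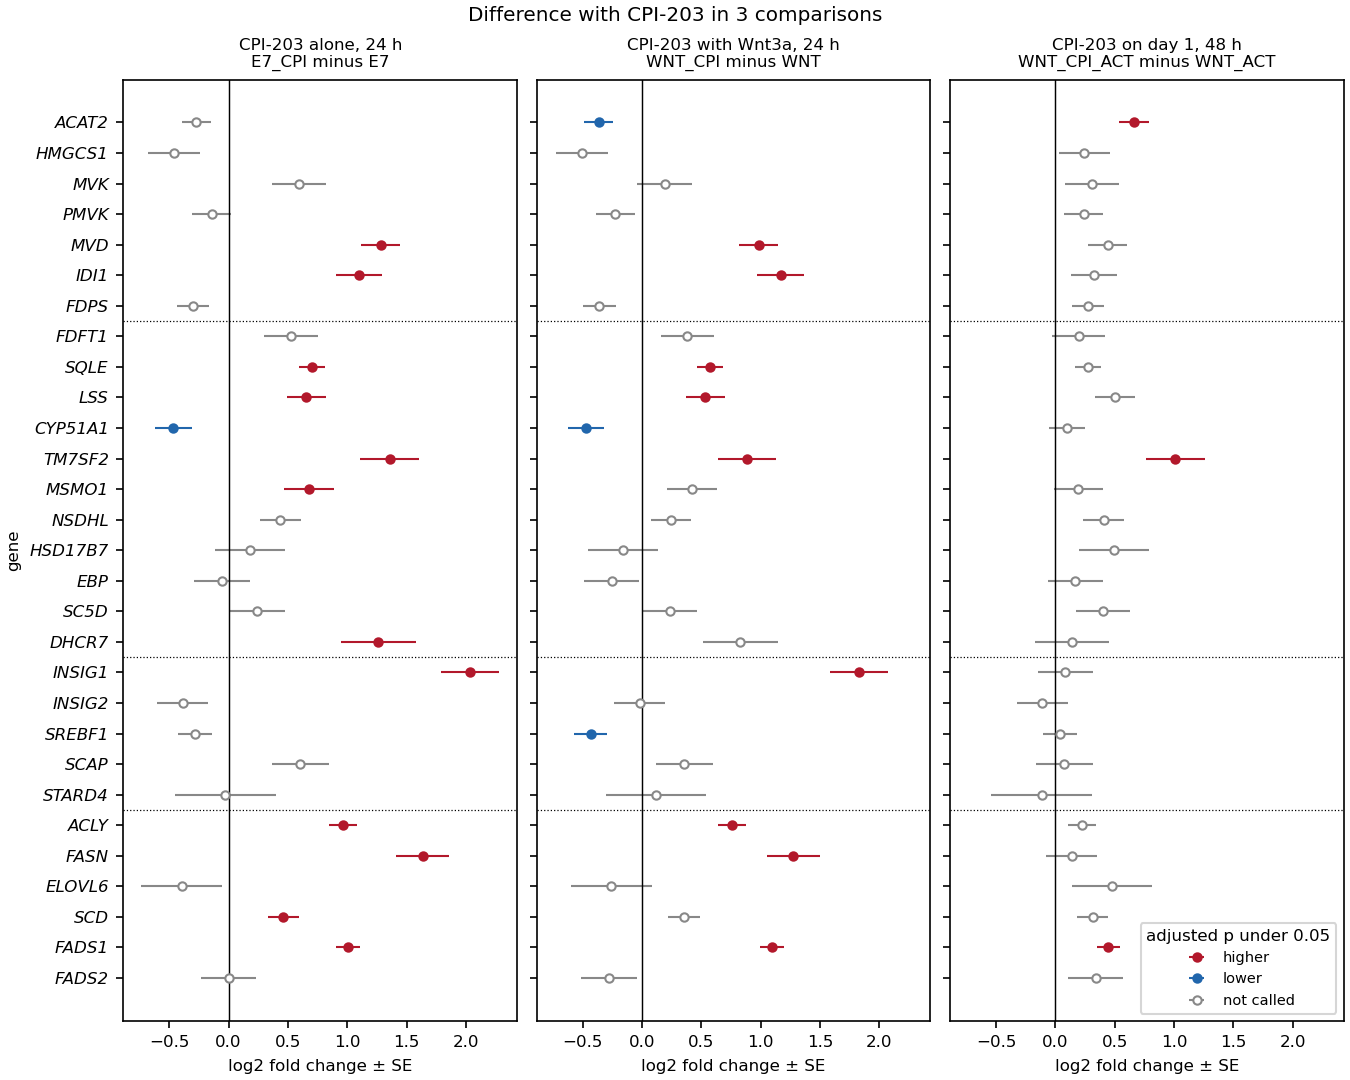
Log2 fold change (horizontal axis) with its SE (bar) of each of the 29 genes (rows, grouped by role) in the 3 comparisons with CPI-203: alone at 24 h, with Wnt3a at 24 h, and on day 1 read at 48 h. Filled red points are called higher and filled blue points lower at an adjusted p under 0.05; 12 and 1 genes are filled in the left panel, 9 and 3 in the middle panel, and 3 and 0 in the right panel.

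Whether the CPI-203 difference itself depended on Wnt3a was tested with an interaction term. For the 29 genes no interaction was called by edgeR, 0 had an unadjusted p under 0.05, and DESeq2 also called 0. Over all genes tested, edgeR called 0.0115% and DESeq2 0.19%. The interaction estimates ran from -0.47 ± 0.35 for TM7SF2 to 0.37 ± 0.30 for INSIG2 on the log2 scale, with 5 of 29 above 0. They rest in part on E7_CPI against E7, in which both E7_CPI libraries lay with the replicate 2 libraries. With replicate number as a term and all 16 libraries kept, 0 of 29 interactions were called as well. The paired fit, which removes the replicate difference, was also run for this contrast, and its estimates are not given here. The size of the shift between the fits was not tested. For INSIG1 the estimate was -0.20 ± 0.33, for FASN -0.36 ± 0.31 and for FADS1 0.09 ± 0.14. A difference between the responses without and with Wnt3a was not detectable with these libraries, which does not show that the responses are equal.

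The promoters of genes that rose together are shown because many genes of these pathways are known to bind SREBP with NF-Y and SP1 near the start. The RefSeq promoter table of GRCh38.p14, 250 bases before to 50 after the start of each gene, had entries for 25 of the 29 genes. The 250 bases before the start follow for 6 of the 7 genes of the table called higher in both 24 h comparisons, ranked by the smaller of their changes, which leaves out LSS, and for CYP51A1, called lower in both. Capitals mark CCAAT (the NF-Y box) and GGGCGG (the SP1 box), found on either strand, so that ATTGG and CCGCCC are their reverse complements.
INSIG1 (chr7:155297628-155297877, + strand): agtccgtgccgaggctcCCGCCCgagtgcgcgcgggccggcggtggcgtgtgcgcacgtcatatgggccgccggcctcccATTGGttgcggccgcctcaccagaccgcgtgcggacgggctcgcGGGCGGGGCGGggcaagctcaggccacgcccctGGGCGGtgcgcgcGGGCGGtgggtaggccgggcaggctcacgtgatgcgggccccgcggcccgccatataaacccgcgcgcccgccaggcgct
IDI1 (chr10:1056705-1056954, - strand): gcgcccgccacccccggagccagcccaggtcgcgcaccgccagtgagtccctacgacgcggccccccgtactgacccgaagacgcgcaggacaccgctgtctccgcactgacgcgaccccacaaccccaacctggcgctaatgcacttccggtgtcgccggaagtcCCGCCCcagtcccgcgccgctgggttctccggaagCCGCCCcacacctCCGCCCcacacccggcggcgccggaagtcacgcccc
FADS1 (chr11:61817004-61817253, - strand): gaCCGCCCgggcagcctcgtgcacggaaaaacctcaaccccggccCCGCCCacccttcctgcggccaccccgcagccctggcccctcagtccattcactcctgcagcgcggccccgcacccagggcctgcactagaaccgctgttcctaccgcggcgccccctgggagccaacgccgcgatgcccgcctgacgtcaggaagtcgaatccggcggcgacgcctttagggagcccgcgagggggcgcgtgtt
MVD (chr16:88663092-88663341, - strand): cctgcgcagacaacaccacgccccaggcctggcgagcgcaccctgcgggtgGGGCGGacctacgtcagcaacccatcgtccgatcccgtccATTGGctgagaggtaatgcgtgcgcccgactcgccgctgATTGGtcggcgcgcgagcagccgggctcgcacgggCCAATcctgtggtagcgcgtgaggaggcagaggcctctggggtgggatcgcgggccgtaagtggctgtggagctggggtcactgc
TM7SF2 (chr11:65111622-65111871, + strand): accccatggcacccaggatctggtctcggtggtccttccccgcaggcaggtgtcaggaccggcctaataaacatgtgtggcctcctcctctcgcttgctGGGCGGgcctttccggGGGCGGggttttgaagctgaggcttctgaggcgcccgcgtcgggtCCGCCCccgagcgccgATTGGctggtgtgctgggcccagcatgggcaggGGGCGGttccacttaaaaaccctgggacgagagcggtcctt
ACLY (chr17:41919023-41919272, - strand): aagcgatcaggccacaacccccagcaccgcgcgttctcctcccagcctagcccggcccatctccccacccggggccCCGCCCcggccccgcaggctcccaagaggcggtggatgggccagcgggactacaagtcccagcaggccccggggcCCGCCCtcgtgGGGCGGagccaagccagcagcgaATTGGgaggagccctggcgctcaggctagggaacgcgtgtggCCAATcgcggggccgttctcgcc
CYP51A1 (chr7:92134478-92134727, - strand): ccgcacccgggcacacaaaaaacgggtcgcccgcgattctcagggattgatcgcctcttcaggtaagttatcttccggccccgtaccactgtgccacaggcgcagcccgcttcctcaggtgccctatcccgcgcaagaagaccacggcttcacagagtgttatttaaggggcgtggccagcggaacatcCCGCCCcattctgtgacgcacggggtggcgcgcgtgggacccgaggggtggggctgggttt
The core of the sterol regulatory element, TCACNCCAC, was searched on both strands as well. It was not in the 300-base window of any of the 25 genes, which says only that these letters are not there, and it was in 1.15% of all 27305 promoters in the table. CCAAT was in 16 of 25 windows (64%), against 35.7% of all promoters and 36.1% of those of genes tested. GGGCGG was in 23 of 25 (92%), against 44.6% and 66.3%. The 7 genes of the table called higher in both 24 h comparisons include LSS, which is not printed, and not CYP51A1. Of these, 5 had CCAAT and 7 had GGGCGG, and among the other 18 genes 11 and 16 had them. INSIG1 above has 1 CCAAT and 5 GGGCGG, some of them overlapping in the printed run, MVD has 3 and 1, ACLY 2 and 3, and TM7SF2 1 and 4, while IDI1, FADS1 and CYP51A1 have no CCAAT.

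At 48 h, a day after CPI-203 had been given and with Activin A on day 2, most of these differences were small. In WNT_CPI_ACT against WNT_ACT 3 of 29 genes were called higher and 0 lower, where 1.9% of all genes tested were called higher and 4% lower. Without E7_CPI replicate 1 the call of ACAT2 alone remained (1.01% of all genes higher and 2.64% lower), and the paired fit called 12 higher and 0 lower (8.13% higher and 12% lower). The estimates leaned one way: 27 of 29 were above 0, all 18 sterol enzymes and all 6 fatty acid genes among them, with a median of 0.28 beside 0.001 over all genes tested. The summed stem cell markers were 8322 to 9791 CPM in WNT_ACT and 9197 to 10890 in WNT_CPI_ACT. The summed level of 7 primitive streak and mesendoderm markers was 236.8 to 1465 CPM in WNT_ACT and 38.16 to 257.6 in WNT_CPI_ACT, with none at 0, and the part of this in the results was not tested. The sum of the 5 neuroectoderm markers was 1.563 to 2.503 CPM in WNT_ACT and 4.54 to 5.30 in WNT_CPI_ACT, and that of the 5 trophoblast and amnion markers 2.54 to 5.43 and 1.26 to 2.08.

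ACAT2 changed sign. It stood at 192 and 200.3 CPM in WNT_ACT and 312 and 308 in WNT_CPI_ACT, where both libraries were above every other library of the 16. The log2 fold change was 0.66 ± 0.12 (adjusted p = 0.0139) and lost its call when any of the 4 compared libraries was left out. TM7SF2 stood at 29.4 and 50.6 CPM in WNT_ACT and 71.8 and 89.6 in WNT_CPI_ACT, without overlap, at 1.01 ± 0.25 (adjusted p = 0.0393). FADS1 stood at 379 and 371 and 506 and 514, at 0.45 ± 0.10 (adjusted p = 0.0253). The FADS1 call was lost when any of the 4 compared libraries was left out, and that of TM7SF2 without WNT_ACT replicate 1 or either WNT_CPI_ACT replicate, with its log2 fold change between 0.67 and 1.46. Both calls were also lost without E7_CPI replicate 1 and returned in the paired fit (adjusted p = 0.000516 and 0.00241).

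INSIG1 and FASN, with the largest differences at 24 h in cells given Wnt3a, overlapped the control at 48 h. INSIG1 stood at 99.2 and 142 CPM in WNT_ACT and 116 and 139 in WNT_CPI_ACT, with a log2 fold change of 0.09 ± 0.24 (adjusted p = 0.952). FASN stood at 1333 and 1775 and 1582 and 1836, at 0.14 ± 0.22 (adjusted p = 0.874). DHCR7 also overlapped, with 0.14 ± 0.31 (adjusted p = 0.934). SQLE stood at 306 and 306 and 372 and 370.2, with the CPI-203 libraries higher, at 0.28 ± 0.11 (adjusted p = 0.189), and was called in the paired fit (adjusted p = 0.0176). SCD at 0.31 ± 0.13, LSS at 0.50 ± 0.16 and FDPS at 0.28 ± 0.14 were likewise called in the paired fit alone (adjusted p = 0.0133, 0.00262 and 0.0186). HMGCS1 at 869 and 580 and 1009 and 708, SREBF1 at 70.6 and 86.9 and 72.1 and 89.6, SCAP at 96.6 and 143 and 104 and 148 and INSIG2 at 11.6 and 8.93 and 9.8 and 9.26 CPM all overlapped between the groups.

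**Figure D3:**
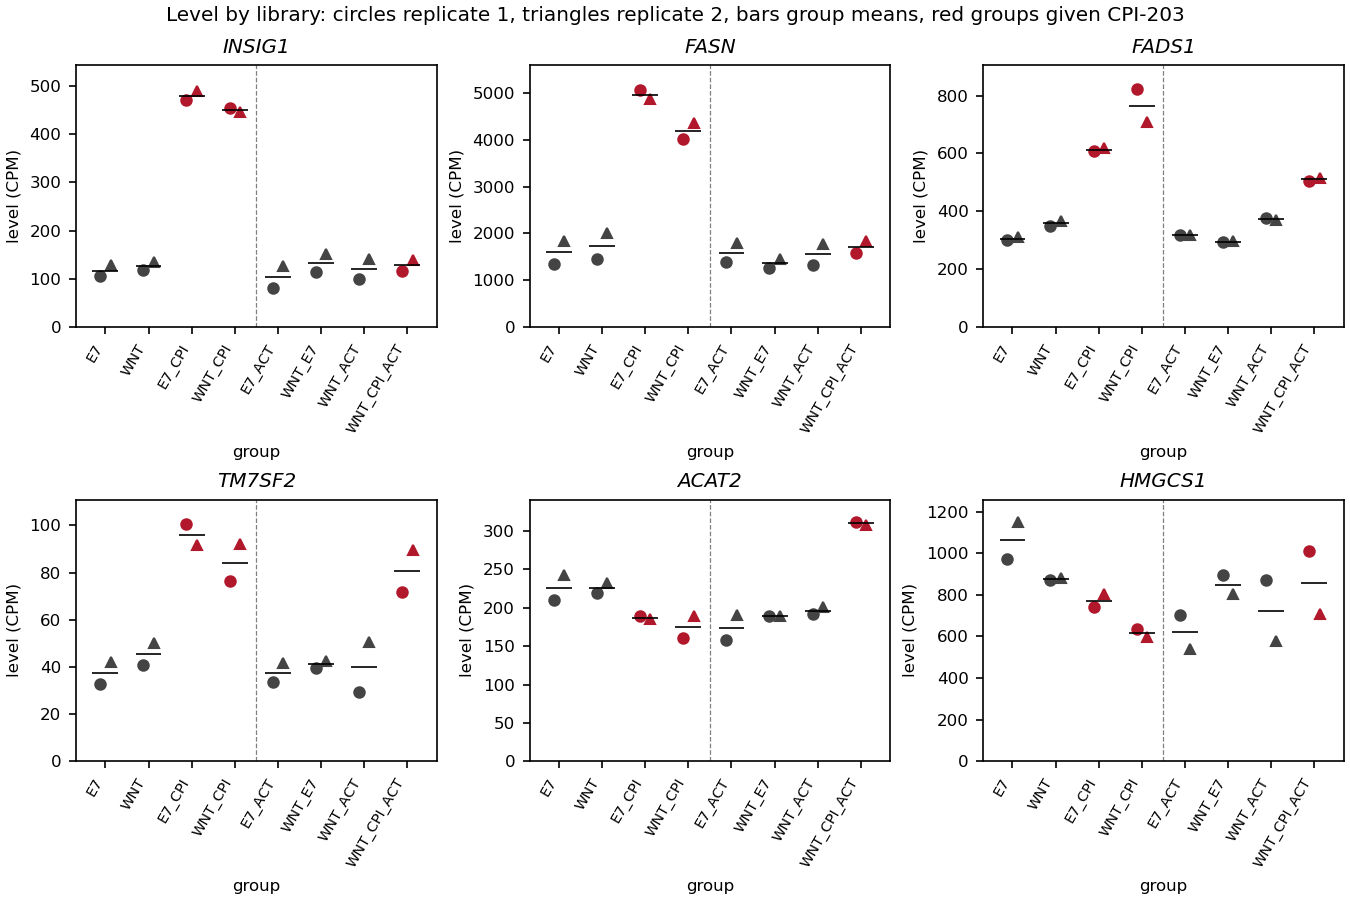
Level in CPM (vertical axis, from 0) of 6 genes in each of the 8 groups, with replicate 1 as circles, replicate 2 as triangles, group means as bars and the groups given CPI-203 in red; the dashed line separates 24 h from 48 h. INSIG1 and FASN are high in E7_CPI and WNT_CPI and near the other groups in WNT_CPI_ACT, TM7SF2 and FADS1 are raised in all 3 red groups, and ACAT2 is highest in WNT_CPI_ACT.

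The change between the days was tested as the 48 h difference minus the 24 h difference, both in cells given Wnt3a. ACAT2 was called higher at 1.03 ± 0.18 (adjusted p = 0.004), and 3 genes were called lower: INSIG1 at -1.75 ± 0.34 (adjusted p = 0.00717), FASN at -1.14 ± 0.31 (adjusted p = 0.0338) and FADS1 at -0.65 ± 0.14 (adjusted p = 0.0114). Over all genes tested, 7.73% were called higher and 5.6% lower. FASN lost its call in 7 of 9 fits that left out a library, among them the fit without E7_CPI replicate 1, and FADS1 lost it without WNT replicate 1. Without E7_CPI replicate 1 there were 1 higher and 2 lower (6.16% and 3.93% of all genes), and in the paired fit 8 higher and 8 lower (17.9% and 15.4%). The genes called higher in the paired fit were ACAT2, HMGCS1, FDPS, CYP51A1, HSD17B7, EBP, ELOVL6 and FADS2, and those called lower were MVD, IDI1, SQLE, DHCR7, INSIG1, ACLY, FASN and FADS1. The changes of TM7SF2 at 0.13 ± 0.35 (adjusted p = 0.891) and LSS at -0.03 ± 0.23 (adjusted p = 0.967) did not pass the test in either fit.

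**Figure D4:**
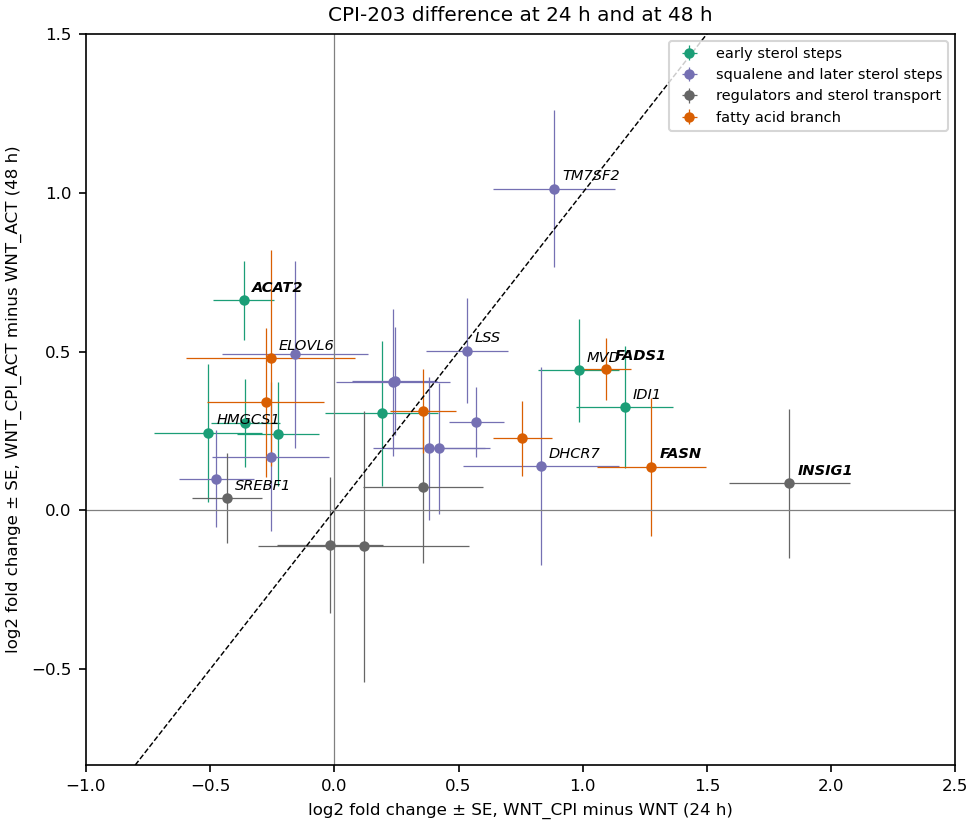
Log2 fold change with CPI-203 at 24 h (horizontal axis, WNT_CPI minus WNT) against that at 48 h (vertical axis, WNT_CPI_ACT minus WNT_ACT) for the 29 genes, coloured by role, with SE bars and the line of equal values dashed; bold names mark the 4 genes whose change between the days was called. INSIG1, FASN and FADS1 lie below the line and ACAT2 above it, and 27 of 29 points are above 0 on the vertical axis.

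Set against the same treatment a day earlier, WNT_CPI_ACT had 2 of 29 genes higher and 7 lower than WNT_CPI, where 14.9% of all genes tested were called higher and 12% lower. Removal of CPI-203, time and Activin A are not separate in this comparison. The 7 that fell were INSIG1 at -1.81 ± 0.24 (adjusted p = 0.0004), FASN at -1.29 ± 0.22, IDI1 at -0.99 ± 0.19, MVD at -0.87 ± 0.16, ACLY at -0.63 ± 0.12, FADS1 at -0.58 ± 0.10 and SQLE at -0.50 ± 0.11. The 2 that rose were ACAT2 at 0.82 ± 0.13 (adjusted p = 0.000854) and FDPS at 0.60 ± 0.14 (adjusted p = 0.0087). The same 9 genes were called without E7_CPI replicate 1 (13.1% and 9.77% of all genes higher and lower), SQLE was lost without WNT_CPI replicate 2, FDPS without WNT_CPI replicate 1 or WNT_CPI_ACT replicate 2, and the paired fit called 6 higher and 10 lower (24.8% and 23.6%). These groups share WNT_CPI with the 24 h comparison, so that the falls here and the rises there rest in part on the same libraries.

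Without CPI-203, Wnt3a and Activin A gave few calls among these genes. In WNT against E7, 0 of 29 were called by edgeR or DESeq2, 1 had an unadjusted p under 0.05, and 0.605% of all genes tested were called by edgeR and 1.75% by DESeq2. The estimates lay between -0.31 ± 0.22 for FDFT1 and 0.28 ± 0.25 for TM7SF2. In WNT_ACT against E7_ACT (3.84% of all genes), WNT_ACT against WNT_E7 (0.882%), E7_ACT against E7 (0.599%) and WNT_ACT against WNT (1.68%), edgeR called 0 of 29. Unadjusted p-values under 0.05 numbered 1, 1, 4 and 1 in these, and DESeq2 called 0, 1, 1 and 1 of 29, where it called 6.49%, 4.16%, 2.59% and 5.16% of all genes. In the paired fit, DHCR7 was called higher in WNT_ACT against E7_ACT at 0.38 ± 0.10 (adjusted p = 0.0321; 6.49% of all genes higher). FADS1 was called higher in WNT_ACT against WNT_E7 at 0.34 ± 0.07 (adjusted p = 0.0226; 4% of all genes higher). SREBF1 was called lower in WNT_ACT against WNT at -0.50 ± 0.12 (adjusted p = 0.0326; 3.48% of all genes lower).

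The comparison of E7_ACT with E7, in which time and Activin A are not separate, had 4 of 29 estimates above 0, with a median of -0.25 beside 0.008 over all genes tested. In the paired fit 3 sterol enzymes were called lower, where 1.62% of all genes were. HMGCS1 stood at 974 and 1149 CPM in E7 and 703 and 540.3 in E7_ACT, without overlap, at -0.79 ± 0.17 (adjusted p = 0.0263). ACAT2 stood at 209.5 and 242 and 158 and 190.1, at -0.38 ± 0.09 (adjusted p = 0.0347). SQLE stood at 362 and 413 and 298 and 329.7, at -0.30 ± 0.07 (adjusted p = 0.0361). All 3 had lower levels in both E7_ACT libraries than in either E7 library.

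The replicate numbers split the genes as well. Over the 7 groups without E7_CPI, replicate 1 was the lower library in every group for MVK, FDPS, FDFT1, LSS, TM7SF2, MSMO1, NSDHL, HSD17B7, EBP, DHCR7, SCAP, FASN and FADS2. It was the higher library in every group for STARD4, ELOVL6 and INSIG2. The median log2 ratio of replicate 1 to replicate 2 was -0.496 for DHCR7, -0.368 for FASN, 0.507 for ELOVL6 and 0.673 for STARD4. In E7_CPI the same ratios were 0.031, 0.055, -0.126 and -0.099. The mean log2 level of the 18 sterol enzymes relative to E7 was -0.157 and 0.157 in the 2 E7 libraries, 0.423 and 0.414 in E7_CPI, -0.122 and 0.07 in WNT and 0.105 and 0.293 in WNT_CPI. Each CPI-203 pair was above its control pair, and replicate 1 of WNT_CPI was below replicate 2 of E7. That of the 6 fatty acid genes was -0.102 and 0.102 in E7, 0.615 and 0.63 in E7_CPI, -0.025 and 0.089 in WNT and 0.555 and 0.505 in WNT_CPI. These 4 CPI-203 libraries were the highest of the 16, ahead of WNT_CPI_ACT at 0.289 and 0.274.

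Genes next to these pathways were read from lists chosen by function, with earlier results of these data known. Their counts are to be read beside the shares of all genes given above. These were 15% higher and 17.6% lower in E7_CPI against E7 and 13% and 17.9% in WNT_CPI against WNT. At 48 h they were 1.9% and 4%. Of 12 tested genes that process or retain SREBP, 6 were called higher and 0 lower in E7_CPI against E7, 2 and 0 in WNT_CPI against WNT, and 0 at 48 h. In turn, 1, 1 and 0 were higher and 0 lower without E7_CPI replicate 1, and in the paired fit 7, 6 and 2 higher and 0, 2 and 0 lower. Among those called were SPRING1 at 0.61 ± 0.20, an SREBP regulator, ERLIN2 at 0.52 ± 0.11 and RNF139 at 0.45 ± 0.15, and in the presence of Wnt3a ERLIN2 at 0.46 ± 0.11 and FAF2 at 0.30 ± 0.10. Of these 4 genes, ERLIN2 alone was still called without E7_CPI replicate 1, in both comparisons, and its call with Wnt3a was lost without WNT replicate 1 or WNT_CPI replicate 2. The calls of SPRING1, RNF139 and FAF2 given here were lost when any library of the compared groups was left out.

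Of 10 tested genes of other isoprenoid synthesis, 3 were called higher and 1 lower in each 24 h comparison and 0 at 48 h. The fit without E7_CPI replicate 1 gave 1, 2 and 0 higher and 0, 1 and 0 lower, and in the paired fit 4, 3 and 1 higher and 2, 4 and 1 lower. COQ2, of coenzyme Q synthesis, was called at 0.83 ± 0.11 and 0.74 ± 0.11, DHDDS, of dolichol synthesis, at 0.59 ± 0.14 and 0.48 ± 0.14, GGPS1, which makes geranylgeranyl diphosphate, at 0.50 ± 0.13 and 0.37 ± 0.13, and PDSS2 at -0.41 ± 0.11 and -0.54 ± 0.11. The GGPS1 calls were lost when any compared library was left out, and that with Wnt3a also without E7_CPI replicate 1. Without Wnt3a the DHDDS call was lost without E7 replicate 1 or either E7_CPI replicate, and that of PDSS2 without E7 replicate 2 or either E7_CPI replicate. With Wnt3a DHDDS was lost without either WNT replicate or WNT_CPI replicate 2.

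Of 19 genes for sterol uptake, transport and LXR targets, 2 were called higher and 2 lower in each 24 h comparison, a share below that of all genes each way, and 0 and 2 at 48 h. When E7_CPI replicate 1 was left out, 2, 2 and 0 were higher and 0, 2 and 2 lower, and in the paired fit 3, 4 and 2 higher and 4, 4 and 6 lower. SOAT1, which esterifies cholesterol for storage, rose by 2.20 ± 0.35 (adjusted p = 0.000879) and 1.93 ± 0.34 (adjusted p = 0.00181), and NPC1, which exports cholesterol from lysosomes, rose by 1.38 ± 0.14 and 1.39 ± 0.14. The lipoprotein receptors VLDLR at -1.30 ± 0.40 and -1.52 ± 0.40 and LRP8 at -1.26 ± 0.30 and -1.19 ± 0.30 fell. Without Wnt3a the VLDLR call was lost when any compared library was left out, and that of LRP8 without E7 replicate 1 or either E7_CPI replicate. With Wnt3a VLDLR was lost without WNT replicate 2 or WNT_CPI replicate 1, and LRP8 without WNT replicate 1 or WNT_CPI replicate 2. At 48 h VLDLR at -2.01 ± 0.41 and MYLIP, a ubiquitin ligase for these receptors, at -0.85 ± 0.16 were called lower. Both were lost without WNT_ACT replicate 2 or WNT_CPI_ACT replicate 2, and VLDLR also without WNT_ACT replicate 1.

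Of 25 tested genes of other fatty acid and glycerolipid synthesis, 5 were called higher and 0 lower without Wnt3a, 5 and 2 with it, and 2 and 0 at 48 h. Of the 26 tested without E7_CPI replicate 1, 4, 5 and 1 were higher and 0, 2 and 0 lower, and in the paired fit 7, 9 and 3 were higher and 3, 2 and 2 lower. ACSL1, an acyl-CoA synthetase, rose by 1.82 ± 0.16 and 2.01 ± 0.16, DGAT1, of triglyceride synthesis, by 1.73 ± 0.24 and 1.60 ± 0.24, and ELOVL4, an elongase of very long chains, by 1.53 ± 0.16 and 1.43 ± 0.16. ELOVL7 was called at 1.19 ± 0.24 and 1.08 ± 0.24, the latter lost without WNT replicate 2. AGPAT2 was called at -1.11 ± 0.29 with Wnt3a, lost without WNT replicate 2 or WNT_CPI replicate 1. At 48 h LPIN1 was called at 1.02 ± 0.23, lost without E7_CPI replicate 1, WNT_ACT replicate 1 or either WNT_CPI_ACT replicate. ACSS2, which makes acetyl-CoA from acetate, was called at 1.00 ± 0.17, lost without WNT_ACT replicate 1.

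Of 23 tested genes of fatty acid oxidation, the opposing pathway, 5 were called higher and 3 lower in each 24 h comparison and 1 each way at 48 h, which is near the shares of all genes. Without E7_CPI replicate 1 there were 2, 4 and 1 higher and 1 lower in each, and in the paired fit 9, 9 and 5 higher and 2, 4 and 1 lower. CPT1A, which controls fatty acid entry into mitochondria, was called lower at -1.80 ± 0.29 (adjusted p = 0.000969), -2.39 ± 0.29 (adjusted p = 0.000179) and -1.52 ± 0.28 (adjusted p = 0.0121) in the 3 comparisons in turn, the last lost without replicate 2 of either group. PPARGC1A, a transcriptional coactivator, was called at -1.80 ± 0.53 and -1.58 ± 0.52, and HADHB at 1.06 ± 0.27 and 0.78 ± 0.27. The calls of both genes were lost without E7 replicate 1 or either E7_CPI replicate in the comparison without Wnt3a, and without E7_CPI replicate 1 or any compared library in that with Wnt3a. ACAA1, the peroxisomal thiolase, rose by 1.02 ± 0.19 and 0.87 ± 0.19, the latter lost without WNT replicate 2. ETFDH was called at 1.05 ± 0.30 with Wnt3a, lost without WNT replicate 2 or WNT_CPI replicate 1, and ECI2 at 0.89 ± 0.11 at 48 h. The calls of SOAT1, NPC1, ACSL1, DGAT1, ELOVL4 and COQ2 in both 24 h comparisons, and that of CPT1A there, held whichever library of the compared groups, or E7_CPI replicate 1, was left out.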

How the data were processed

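RNA libraries of 8 groups (2 each) were read from the 2 deposited tables of raw gene counts, 1 per replicate number. The submitters' processing notes name featureCounts and DESeq2, and the aligner and build of the RNA counts are not given in the sources used here. The deposited list of ATAC peaks, positions without values, was not used here. The members and lists were chosen with earlier results of these data known.

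The fit took all 16 libraries (edgeR 4.0.16, R 4.3.3): filterByExpr by group, TMM factors of 0.948 to 1.049, and the 2-sided quasi-likelihood F-test with 8 residual degrees of freedom. Benjamini-Hochberg adjustment ran over the 17355 genes tested, and all 29 members passed the filter. The SE is the absolute log2 fold change over the square root of F. Every member is given; those called and among the 10 largest changes of a CPI-203 comparison, and 8 fixed ones, are given by library, and up to 4 called genes of each other list are named. The fit was tested on data simulated for WNT_CPI against WNT, with 200 of 17355 genes changed. It called 25% of the genes changed by 1 on the log2 scale and 82% of those changed by 2. These shares are not the sensitivity in the data, where 5374 genes were called in this comparison. The simulated libraries were also drawn without the difference between replicate numbers. DESeq2 was 1.42.0. Promoters were searched with Python 3.11.15.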

Additional observations from a re-analysis of the deposited data

Results flagged for a closer look

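For 4 genes the difference with CPI-203 itself differed between 24 h and 48 h in cells given Wnt3a, by edgeR's test of that difference. The change was 1.03 for ACAT2 on the log2 scale, -1.75 for INSIG1, -1.14 for FASN and -0.65 for FADS1. Taken within replicate numbers, the INSIG1 difference was 1.94 and 1.73 at 24 h and 0.23 and -0.02 at 48 h, and that of ACAT2 was -0.45 and -0.29 at 24 h and 0.70 and 0.62 at 48 h. FASN lost its call in 7 of 9 fits with a library left out and FADS1 in 1 of 9, without WNT replicate 1, while ACAT2 and INSIG1 lost it in 0 of 9. Removal of CPI-203, time and Activin A cannot be told apart in this contrast.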

How the results depend on the processing

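No gene called in the main run or in an alternative run changed sign between those runs. Of the 4671 values recomputed, 4032 kept direction and call, 227 lost the call, 107 gained it and 305 moved. A gene's value that moved changed sign but was called in neither run. The number of the 29 genes called was 13 in E7_CPI against E7, 21 with the replicate block, and 8 to 13 with a library left out (8 without E7 replicate 1 or E7_CPI replicate 1). In WNT_CPI against WNT it was 12, 7 with the compared groups alone, 20 with the replicate block and without E7_CPI replicate 1, and 7 to 9 with a library left out (7 without WNT replicate 1). In WNT_CPI_ACT against WNT_ACT it was 3, 0 with the compared groups alone, 8 with the block, 12 with the block and without E7_CPI replicate 1, and 0 to 1 with a library left out (0 without WNT_ACT replicate 1 or either WNT_CPI_ACT replicate). For the change between 24 h and 48 h it was 4, 2 with the compared groups alone, 13 with the block, 16 with the block and without E7_CPI replicate 1, and 2 to 5 with a library left out (2 without WNT replicate 1). In WNT_CPI_ACT against WNT_CPI it was 9, 4 with the compared groups alone and 16 with the block and without E7_CPI replicate 1. In E7_ACT against E7 it was 0, 1 by DESeq2 or with the block, and 3 with the block and without E7_CPI replicate 1. In WNT_ACT against WNT and in WNT_ACT against WNT_E7 it was 0, and 1 by DESeq2, with the block, or with the block and without E7_CPI replicate 1. In WNT_ACT against E7_ACT it was 0, and 1 with the block and without E7_CPI replicate 1. The causes were not tested, beyond the fewer libraries that the compared groups alone leave. The 2 alternatives without E7_CPI replicate 1 in comparisons without E7_CPI were added after seeing the data.

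Over all genes, the count called ran from 3121 (without E7_CPI replicate 1) to 8816 (block) around 5671 in E7_CPI against E7, and from 3352 (compared groups alone) to 9417 (block, without E7_CPI replicate 1) around 5374 in WNT_CPI against WNT. In WNT_CPI_ACT against WNT_ACT it ran from 0 to 3590 around 1024, with the same settings at the ends. Scaling by library totals moved the median log2 fold change of all genes in E7_CPI against E7 from -0.052 to -0.142. It moved 35 of 232 group levels by 1 SD or more, to between 0.957 and 1.025 times the level. In the 250 bases before the start alone, CCAAT was in 33% and GGGCGG in 42.3% of all promoters, with the members at 64% and 92% as before. The lone library of a group with a library left out is assumed to vary like the others. With 2 libraries a group, changes of small size are not detectable, and a missed call does not show that a level did not change.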
